A study of Mus musculus with 24 samples.

Results

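The 46 genes described here were chosen by symbol as genes of DNA replication and of mitosis. They comprise 14 S-phase genes and 32 genes of G2 and mitosis, out of 54532 genes in the table of counts, and all 46 were among the 22570 genes with enough reads to be tested. The rule uses no measured value, but the list was chosen with earlier results of these data known. The S-phase genes were Mcm2, Mcm3, Mcm4, Mcm5, Mcm6, Cdc6, Cdc45, Gins2, Rrm1, Rrm2, Tyms, Tk1, Pcna and E2f1. The remaining members were listed under G2 and mitosis, a grouping by symbol that does not measure when each gene acts.

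A cell that is to divide first loads the Mcm helicase onto its DNA, then makes deoxynucleotides and copies its genome, a program switched on mainly by E2F factors. Later in the cycle, B-Myb (the product of Mybl2) and FoxM1 act with the MuvB complex to switch on the kinases, spindle proteins and kinetochore proteins of mitosis. Most tubule cells of a mature kidney rest outside the cycle, while the kidney of a young mouse is still growing, and excess proliferation of tubule cells is a known feature of polycystic kidney disease.

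RNA was measured in the whole kidneys of 24 mice aged 18 days, each mouse giving 1 library. Their strain is C57BL/6 in the labels and C57BL/6 J in the methods of the study. All mice carried the hypomorphic Pkd1 RC allele together with a Pkd1 allele that Cre can delete. Mice without Cre (RC/+) were noncystic, and mice whose other allele was deleted by Ksp-Cre (RC/-), which is active in tubule epithelium but not in all kidney cells, were cystic, so that Cre and the cystic genotype cannot be told apart. In the D18 line (founder 3) and the D53 line (founder 2) the miR-17 binding motif of the RC allele had been deleted, each line going back to 1 founder. The founder of the RC/+ and RC/- mice is not given in the labels, so deletion and founder line cannot be told apart. The study describes a more severe course in unedited RC/- progeny of founder 2 than of founder 3. There were 3 mice in each of the groups RC/+, RC/+ D18 and RC/+ D53, and 5 in each of the groups RC/-, RC/- D18 and RC/- D53. Libraries are named by their replicate numbers, 4 to 27.

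The libraries held 20379982 to 30837488 counts. Pkd1 itself was at 38.4 to 71.4 CPM (counts scaled to the same total in each library), and whole-gene counts do not separate its alleles, so they do not check the genotypes. Markers of proximal tubule, loop, distal tubule and collecting duct were present in every group. RC/- D18 libraries 20 to 22 and all 5 RC/- D53 libraries stood apart by their summed level of 6 skeletal muscle markers, and the main results of these groups are also given without them or, where a group would be left with no library, with a covariate for libraries 20 to 27. Mitochondrial transcripts took 3.16 to 4.05% of the counts in RC/- and 5.93 to 6.55% in RC/+ libraries.

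Promoter sequences of 38 of the 46 genes were matched by symbol in RefSeq (GRCm38.p6, from 250 bases before to 50 after the start of transcription). Mcm4, Gins2, Ccna2, Cdc25c, Foxm1, Aurkb, Tpx2 and Kif20a were not matched. The matched promoters were searched on both strands for 3 kinds of letters that are known from cell cycle promoters: E2F letters (TTCCCGC and the related TTGGCGC, with TTCGCGC and also TTGCCGC), the letters of the cell cycle homology region, CHR, to which MuvB binds (TTTGAA or TTCGAA), and CCAAT, which NF-Y binds. E2F letters stood in 6 of 12 S-phase promoters (50%) and 4 of 26 promoters of G2 and mitosis genes (15.4%), against 9.57% of all 32851 promoters in the table. CHR letters were distributed the other way, in 20 of 26 G2 and mitosis promoters (76.9%) and 2 of 12 S-phase promoters (16.7%), against 19.2% of all promoters. CHR and CCAAT letters stood together in 19 of the 26 (73.1%), in 2 of the 12 (16.7%) and in 7.52% of all promoters. The stretches of 30 bases printed here lie around a match. They show S-phase genes that differed in RC/- kidneys with their E2F letters, and mitotic genes with their CHR letters. Mybl2, the member with the largest difference in RC/- kidneys, is shown with the 30 bases before its start. Their positions are chr7:102441616-102441645 on the plus strand for Rrm1, chr11:98908001-98908030 on the plus strand for Cdc6, chr1:20820276-20820305 on the minus strand for Mcm3, chr10:69352910-69352939 on the minus strand for Cdk1, chr9:61946780-61946809 on the minus strand for Kif23, chr9:70421533-70421562 on the minus strand for Ccnb2, chr11:99024195-99024224 on the minus strand for Top2a, chr2:164769888-164769917 on the plus strand for Ube2c and chr2:163054605-163054634 on the plus strand for Mybl2. Capitals mark the letters found on either strand, CCAAT included.
Rrm1: caggagaactcgTTCCCGCcaggtccgctt
Cdc6: ggccggtggagaGCGGGAAatcgcctgggg
Mcm3: taaacttccgtgGCGGGAAaacttgggaag
Cdk1: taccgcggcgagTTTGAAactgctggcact
Kif23: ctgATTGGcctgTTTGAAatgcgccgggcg
Ccnb2: agcggcgcggtaTTTGAAtcgcggaccggg
Top2a: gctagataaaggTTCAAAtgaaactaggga
Ube2c: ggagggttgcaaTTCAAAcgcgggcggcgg
Mybl2: gcggcgccgacgcacttggcgggagatagg
In Cdk1, Top2a and Ube2c the CHR letters shown lie just before the start of transcription, and in Ccnb2 and Kif23 just after it. None of the letters searched was in the stretch of Mybl2, which says only that these exact letters are not there. Matches are a description and not evidence of binding. The 21 members with CHR and CCAAT letters had a median log2 fold change of 0.61 in RC/- against RC/+ and of -0.86 in RC/- D18 against RC/-, and the 17 matched members without both had medians of 0.56 and -0.85, so that both sets had similar medians.

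The 46 genes were read at moderate to low levels that moved together from library to library. Summed over the members, their level was 830 to 1326 CPM in RC/+, 645 to 1258 CPM in RC/+ D18 and 1458 to 1585 CPM in RC/+ D53 libraries. In the cystic groups the sums were 1177 to 1957 CPM in RC/-, 475 to 1295 CPM in RC/- D18 and 993 to 1660 CPM in RC/- D53. Per kilobase of exon, Pcna, the sliding clamp of DNA polymerase, was the most abundant member at 52.9 CPM per kilobase averaged over groups, followed by Mcm6 at 18.6, Ccnb2 at 18.5 and Rrm2 at 18.1, while Cdc25c was at 0.790 and Mybl2 at 1.09 CPM per kilobase. The plot of class means by library shows the shared movement.

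**Figure D1:**
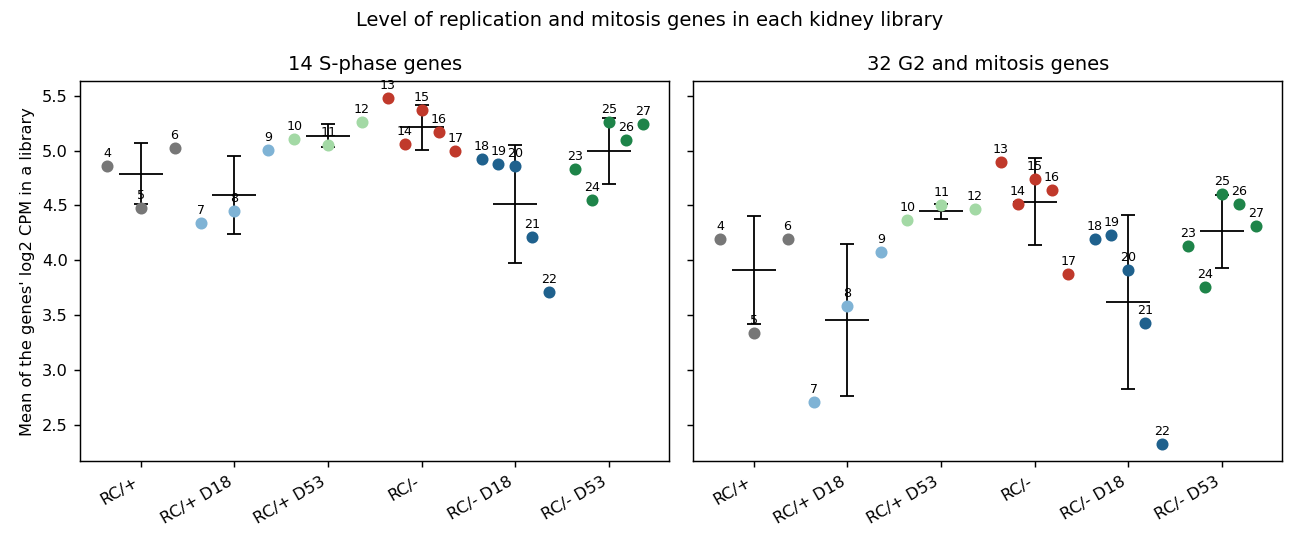
Mean log2 CPM of the 14 S-phase genes (left) and the 32 G2 and mitosis genes (right) in each of the 24 libraries, with replicate numbers beside the points and the group mean and SD in black. RC/- D18 replicate 22 was the lowest library in both panels, at 3.71 and 2.32, and the 3 RC/+ D53 libraries lay close together at 5.05 to 5.26 and 4.37 to 4.50.

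Within groups a single library was often low for nearly the whole set. RC/+ replicate 5 was the lowest of its group for 46 of 46 members and RC/- D18 replicate 22 for 46 of 46. RC/+ D18 replicate 7 was lowest for 42, RC/- D53 replicate 24 for 43 and RC/- replicate 17 for 38 members. At the upper end, RC/+ D18 replicate 9 was the highest of its group for 45 and RC/- replicate 13 for 36 members. In the lowest libraries of RC/+ and RC/- D18 the genes of G2 and mitosis lay further below the S-phase genes than in the other libraries of the group. The G2 and mitosis mean lay below the S-phase mean by 0.67 and 0.83 on the log2 scale in RC/+ replicates 4 and 6 and by 1.14 in replicate 5, and by 0.65 to 0.95 in RC/- D18 replicates 18 to 21 and by 1.38 in replicate 22. This gap was also the widest of its group in RC/+ D18 replicate 7 (1.63) and RC/- replicate 17 (1.12). It was not in RC/- D53, where it was 0.79 in the low replicate 24 and 0.93 in replicate 27. The residual SD of log2 CPM within groups had a median of 0.53 over the members (0.39 for S-phase genes and 0.54 for G2 and mitosis genes), against 0.15 for the 11167 tested genes in the same range of mean expression. As the members moved together within groups, counts of members that pass a test are not counts of independent results.

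Cystic RC/- kidneys were compared with noncystic RC/+ kidneys to ask how the replication and mitosis genes differ with loss of the second Pkd1 allele. Of the 46 members, 8 rose in RC/- and none fell (limma-trend, Benjamini-Hochberg adjusted p below 0.05 over all tested genes). These were Mybl2, Tpx2, Cdc6, Kif23, Mcm4, Mcm3, Rrm1 and Mcm2, that is 5 of 14 S-phase and 3 of 32 G2 and mitosis genes, or 17.4% of the members, while 25.5% of all tested genes rose and 12.2% fell. All 46 members had a positive log2 fold change, with a median of 0.58 against 0.14 for all tested genes. The lowest RC/- library exceeded the highest RC/+ library for 9 members, 6 of them S-phase genes, while 26% of all tested genes were separated in this way. In a whole kidney, more cycling cells and more RNA per cycling cell cannot be told apart.

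**Figure D2:**
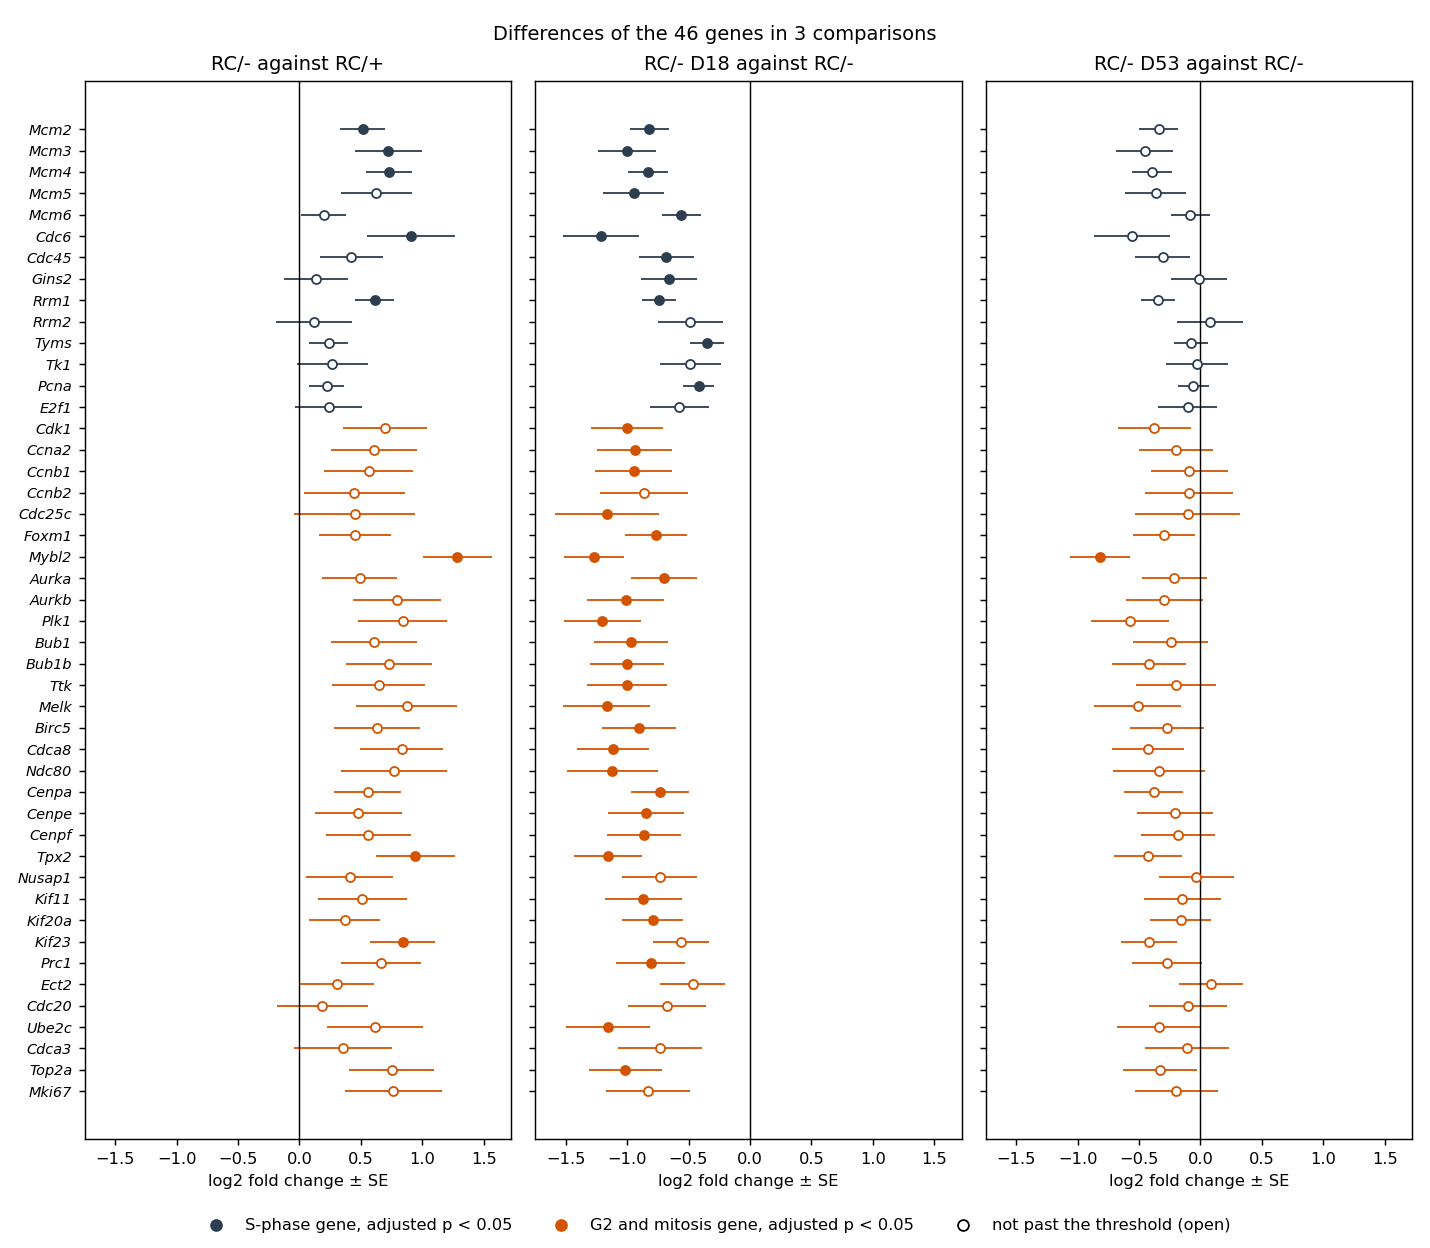
Log2 fold change and its standard error for each of the 46 genes in 3 comparisons, in the order of the text, with filled points for an adjusted p below 0.05. In RC/- against RC/+ all points lie to the right of 0 and 8 are filled, in RC/- D18 against RC/- all lie to the left and 36 are filled, and in RC/- D53 against RC/- only Mybl2 is filled.

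Among the genes that load and run the replicative helicase, 4 of 8 rose. Cdc6, which loads the Mcm ring at origins (chr11:98907801-98923940, plus strand, GRCm38), was read at 5.59, 3.85 and 5.98 CPM in the 3 RC/+ libraries and at 12.3, 7.47, 12.5, 8.90 and 7.70 CPM in the 5 RC/- libraries. The lowest RC/- value lay above the highest RC/+ value, and the log2 fold change was 0.91 ± 0.36 (SE), with an adjusted p of 0.0484, close to the threshold. The call was lost under TMM factors (limma-trend adjusted p = 0.0852) and without RC/+ replicate 5 (limma-trend adjusted p = 0.202). Of the subunits of the Mcm ring, Mcm4 rose from 22.96 ± 1.58 (SD, n = 3) to 38.2 ± 4.58 CPM (SD, n = 5). Its log2 fold change was 0.73 ± 0.19 (limma-trend adjusted p = 0.00350). Mcm3 rose by 0.72 ± 0.27 (limma-trend adjusted p = 0.0377) and Mcm2 by 0.52 ± 0.18 (limma-trend adjusted p = 0.0283), and neither overlapped between the groups. Under TMM factors both calls were lost as well, with limma-trend adjusted p of 0.0788 for Mcm3 and 0.0868 for Mcm2. Mcm5 did not overlap either (33.5 against 50.8 CPM in the means of RC/+ and RC/-), but its log2 fold change of 0.63 ± 0.29 had an adjusted p of 0.0921. Mcm6 was at 84.9 and 97.3 CPM, with a log2 fold change of 0.20 ± 0.18. Cdc45 and Gins2 belong to the active helicase with the Mcm ring. Cdc45 was at 8.60 and 11.6 CPM (0.42 ± 0.26) and Gins2 at 12.9 and 14.2 CPM (0.14 ± 0.26), with adjusted p of 0.214 to 0.727 over these 3 genes. For Gins2, 67.3% of the exon bases lie opposite exons of Gse1, so its counts are uncertain if strand was not used.

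Of the genes for deoxynucleotide supply, 1 of 4 rose. Rrm1, the large subunit of ribonucleotide reductase (chr7:102441695-102469771, plus strand), was at 50.96, 43.7 and 60.4 CPM in RC/+ and at 90.05, 71.3, 86.98, 78.3 and 67.6 CPM in RC/- libraries. The groups did not overlap, and its log2 fold change was 0.61 ± 0.16 (limma-trend adjusted p = 0.00365). The small subunit Rrm2 was nearly level, at 49.1 ± 12.3 and 53.9 ± 13.6 CPM (0.12 ± 0.31, adjusted p = 0.797). The difference between the log2 fold changes of both subunits was not tested. Thymidylate synthase Tyms was at 27.7 and 32.7 CPM (0.24 ± 0.16) and thymidine kinase Tk1 at 29.4 and 35.1 CPM (0.27 ± 0.29), and neither passed the test. Pcna was at 122 ± 16.1 and 142 ± 11.6 CPM, with a log2 fold change of 0.22 ± 0.14 (limma-trend adjusted p = 0.238). E2f1, a factor that activates S-phase genes, was at 15.9, 11.8 and 15.9 CPM in RC/+ and 20.4, 15.3, 20.2, 15.3 and 14.5 CPM in RC/- libraries, so that the groups overlapped (0.24 ± 0.28, adjusted p = 0.542). Pcna has a processed pseudogene with a near-identical transcript (Pcna-ps2, 99.2% over 781 bases), as do Mybl2 and Ccnb1, and reads of such copies cannot be fully separated.

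Among the mitotic regulators, Mybl2 (chr2:163054687-163084688, plus strand) had the largest difference of all 46 members. It was at 3.80, 2.17 and 5.70 CPM in RC/+ and at 11.1, 6.97, 10.96, 9.07 and 7.34 CPM in RC/- libraries. The 5 cystic kidneys all lay above the noncystic ones, and the log2 fold change was 1.28 ± 0.28, with an adjusted p of 0.000794. Foxm1, which acts beside it, was at 14.3 ± 3.41 and 19.7 ± 4.90 CPM (0.45 ± 0.29, adjusted p = 0.243). Cdk1, the kinase that starts mitosis, was at 32.3, 17.6 and 34.96 CPM in RC/+ and 49.98, 41.9, 49.4, 50.3 and 31.8 CPM in RC/- libraries. RC/- replicate 17 lay within the RC/+ range and the other 4 lay above it, which gave 0.70 ± 0.34 and an adjusted p of 0.112. The partners of Cdk1 had similar values without passing the test. Cyclin A2 (Ccna2) was at 22.1 and 33.3 CPM (0.60 ± 0.35), cyclin B1 (Ccnb1) at 17.8 and 25.3 CPM (0.56 ± 0.36) and cyclin B2 (Ccnb2) at 25.7 and 34.9 CPM (0.45 ± 0.41). The Cdk1 phosphatase Cdc25c was at 3.58 and 5.18 CPM (0.45 ± 0.49), and adjusted p over these 4 genes were 0.186 to 0.511. Exons on the opposite strand overlap 12.5% of the exon bases of Ccna2 and 12.7% of those of Cdc25c.

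None of the 7 mitotic kinases passed the threshold. Melk was at 10.3, 5.18 and 10.2 CPM in RC/+ and 18.1, 14.1, 19.4, 17.04 and 9.16 CPM in RC/- libraries, with RC/- replicate 17 again inside the RC/+ range (0.87 ± 0.41, adjusted p = 0.0992). Polo-like kinase Plk1 was at 9.55 and 16.9 CPM (0.84 ± 0.37), and Aurkb, the kinase of the chromosomal passenger complex, at 12.2 and 20.95 CPM (0.79 ± 0.36). The centrosome kinase Aurka was at 12.1 and 16.6 CPM (0.49 ± 0.31). Of the spindle checkpoint kinases, Bub1 was at 7.78 and 11.7 CPM (0.61 ± 0.35), Bub1b at 16.7 and 27.4 CPM (0.73 ± 0.35) and Ttk at 5.38 and 8.25 CPM (0.65 ± 0.38). Adjusted p over the 7 kinases were 0.0743 to 0.228.

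None of the 6 passenger complex and kinetochore genes passed either. Borealin (Cdca8) was at 14.7, 9.07 and 14.2 CPM in RC/+ and 29.3, 20.6, 25.2, 27.6 and 12.5 CPM in RC/- libraries, where again only replicate 17 lay within the RC/+ range (0.83 ± 0.34, adjusted p = 0.0563). Survivin (Birc5) was at 16.4 and 24.8 CPM (0.63 ± 0.35) and the microtubule-binding Ndc80 at 7.16 and 12.5 CPM (0.77 ± 0.43). The centromeric histone Cenpa was at 23.5 and 34.1 CPM and did not overlap between the groups (0.55 ± 0.27). The kinetochore motor Cenpe was at 12.7 and 17.9 CPM (0.48 ± 0.36) and Cenpf at 22.6 and 33.2 CPM (0.56 ± 0.35), with adjusted p over the 5 genes after Cdca8 of 0.117 to 0.313.

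Of the 7 spindle and cytokinesis genes, 2 rose. Tpx2, which activates Aurora A on the spindle (chr2:152847964-152895321, plus strand), was at 23.8, 13.6 and 24.97 CPM in RC/+ and 50.4, 37.3, 46.3, 40.9 and 24.3 CPM in RC/- libraries. Replicate 17 lay just below the highest RC/+ value and the other 4 above it (0.94 ± 0.32, limma-trend adjusted p = 0.0221), a call that was lost without RC/+ replicate 5 (limma-trend adjusted p = 0.168) and without RC/- replicate 13 (limma-trend adjusted p = 0.0504). Kif23, the motor of the central spindle (chr9:61915905-61946774, minus strand), was at 22.2, 15.6 and 20.5 CPM in RC/+ and 41.2, 31.8, 43.8, 36.9 and 22.7 CPM in RC/- libraries and did not overlap (0.84 ± 0.26, limma-trend adjusted p = 0.0140). Its partners in cytokinesis did not pass. Prc1 was at 14.7 and 22.8 CPM (0.66 ± 0.33), Kif20a at 11.1 and 13.9 CPM (0.37 ± 0.29) and Ect2 at 19.02 and 23.5 CPM (0.30 ± 0.30). The spindle motor Kif11 was at 20.3 and 28.8 CPM (0.51 ± 0.36) and Nusap1, which bundles microtubules, at 18.99 and 25.4 CPM (0.41 ± 0.35). Adjusted p over these 5 genes were 0.115 to 0.468. Of the exon bases of Kif20a, 29.3% lie opposite exons of Cdc23, and of those of Prc1, 11.1% lie opposite exons of Rccd1. Their counts are uncertain if strand was not used.

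The genes that act at mitotic exit and on chromosomes did not pass. The ubiquitin-conjugating enzyme Ube2c was at 23.7, 13.8 and 24.4 CPM in RC/+ and 42.4, 28.9, 34.4, 36.5 and 17.5 CPM in RC/- libraries (0.62 ± 0.39, adjusted p = 0.231). Of its exon bases, 22.8% lie opposite exons of the muscle gene Tnnc2, so its counts are uncertain if strand was not used. Cdc20, an activator of the anaphase-promoting complex, was at 32.01 and 35.9 CPM (0.19 ± 0.37) and Cdca3 at 22.4 and 28.8 CPM (0.35 ± 0.40). Mki67, the gene of the proliferation marker Ki-67, was at 79.1, 41.6 and 80.2 CPM in RC/+ and 154, 107, 129, 116 and 62.2 CPM in RC/- libraries. RC/- replicate 17 lay within the RC/+ range and the other 4 above it (0.76 ± 0.39, adjusted p = 0.133). Topoisomerase Top2a was at 53.7 ± 16.3 and 89.5 ± 20.6 CPM (0.75 ± 0.35, adjusted p = 0.0932).

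**Figure D3:**
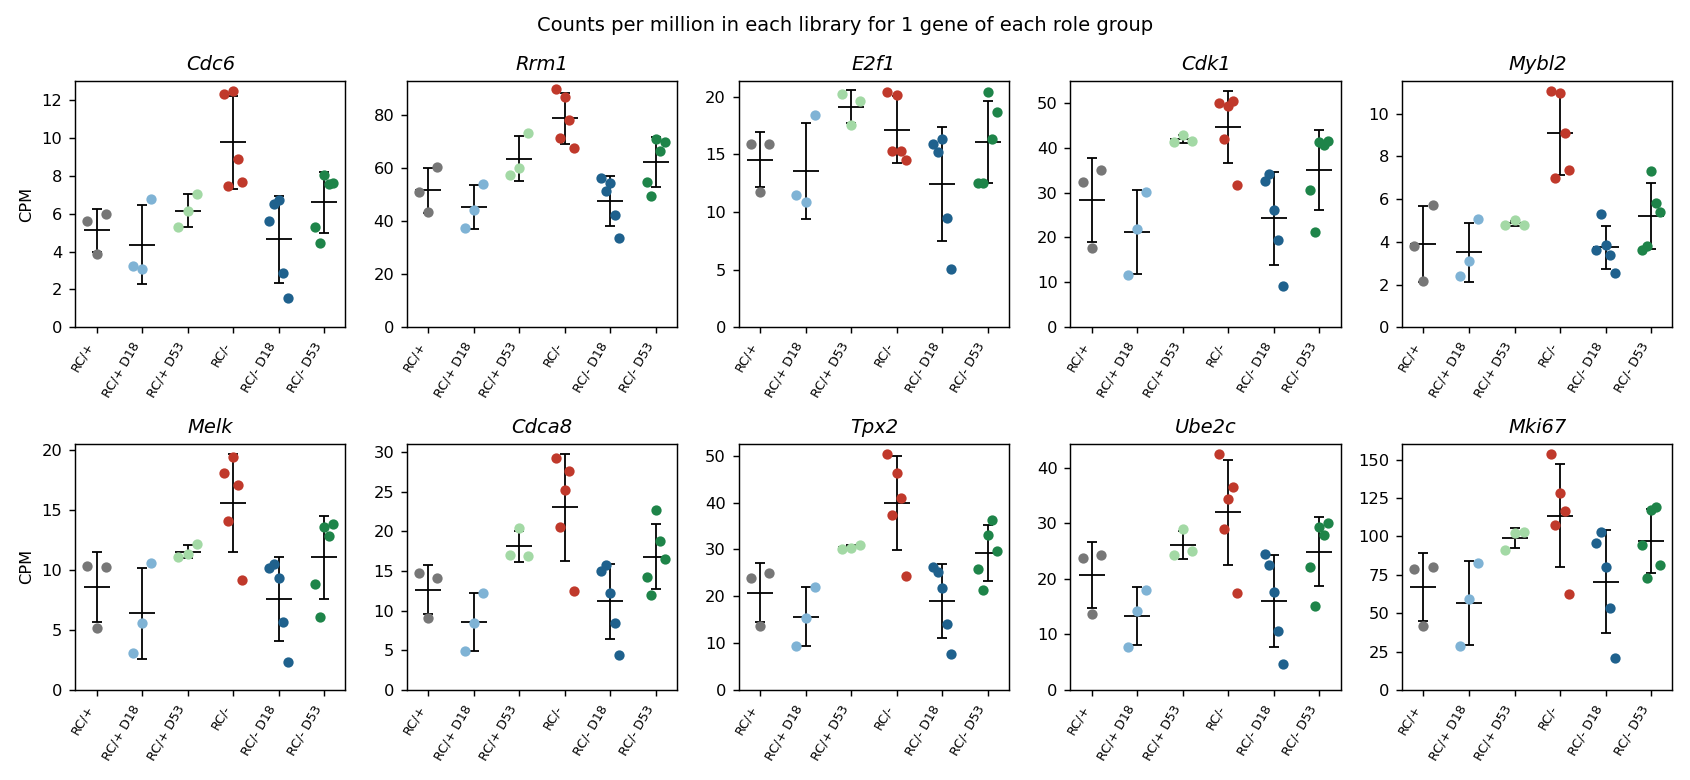
CPM (linear axis from 0) in each of the 24 libraries for the member of each role group with the largest difference in RC/- against RC/+, with group means and SD in black. Mybl2, Cdc6 and Rrm1 do not overlap between RC/+ and RC/-, while for Cdk1, Melk, Cdca8, Ube2c and Mki67 a single low RC/- library lies among the RC/+ values.

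The count of members that rose depended on scaling and on single libraries. TMM factors moved the median log2 fold change of all tested genes from 0.14 to 0.01, and then 5 of 46 members rose and 44 had a positive sign, the exceptions being Gins2 and Rrm2. Relative to the median of all tested genes, the members' median was 0.44 when libraries were scaled by their totals and 0.43 under TMM. Without RC/+ replicate 5, 3 members rose and their median was 0.31, and without RC/- replicate 13 or 15, 5 rose. The shares of all tested genes that rose under TMM factors or without these libraries are not given here. These counts thus do not tell whether calls were lost among the members or among all tested genes. Cell type markers moved with the genotype as well. All 10 macrophage markers rose (summed level 599 to 1094 CPM in RC/- and 270 to 292 CPM in RC/+), as did 5 of 8 fibroblast markers (3127 to 5069 against 1502 to 2106 CPM) and 6 of 8 collecting duct markers (2555 to 4929 against 1172 to 1453 CPM). All 8 proximal tubule markers fell (1289 to 3242 against 6158 to 6725 CPM), 5 of 7 markers of loop and distal tubule fell and 1 rose (3661 to 5682 against 6713 to 7203 CPM), and 5 of 8 endothelial markers fell (781 to 1144 against 994 to 1351 CPM). Of 9 lymphocyte markers 1 rose and 1 fell, of 9 markers of erythroid precursors 2 fell, and of 6 skeletal muscle markers none changed. In RC/+ and RC/- none of these markers was at 0 throughout the group. Their part in the members' differences was not tested.

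The next comparison asked how the same genes differ between cystic kidneys of each line without the miR-17 motif and unedited cystic kidneys. Differences between the lines and RC/- can hold those of founders as well as of the deletion. In the D18 line, 36 of the 46 members fell against RC/- and none rose, that is 78.3%, while 26.9% of all tested genes fell and 14.3% rose. The 36 comprised 11 of 14 S-phase and 25 of 32 G2 and mitosis genes. All 46 log2 fold changes were negative, with a median of -0.85 against -0.10 for all tested genes. RC/- D18 and RC/- values did not overlap for 8 members, 7 of them S-phase genes, or 17.4% of the members, while 18.8% of all tested genes were lower without overlap.

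**Figure D4:**
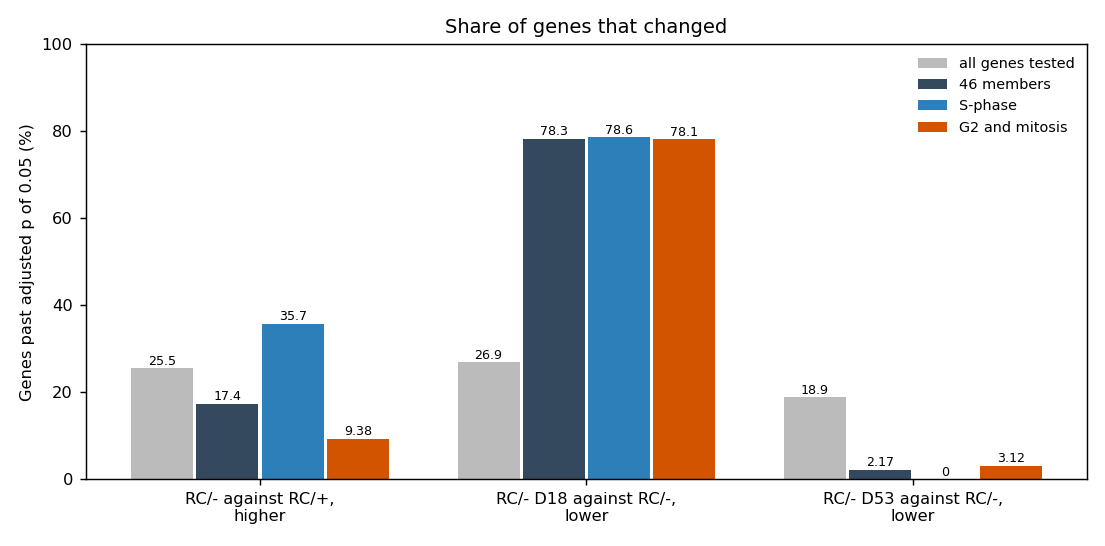
Percent of genes past an adjusted p of 0.05 in the direction named under each group of bars, for all 22570 tested genes, the 46 members, the 14 S-phase genes and the 32 G2 and mitosis genes. The members stand at 17.4% against 25.5% of all genes in RC/-, at 78.3% against 26.9% in RC/- D18 and at 2.17% against 18.9% in RC/- D53.

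All 8 helicase genes fell in RC/- D18. Cdc6 was at 5.61, 6.52, 6.71, 2.89 and 1.56 CPM in the 5 RC/- D18 libraries, all below the RC/- values given above, with a log2 fold change of -1.21 ± 0.31 (limma-trend adjusted p = 0.00272). The log2 fold changes of the others ran from -0.56 for Mcm6 to -1.002 for Mcm3. Rrm1 was at 56.3, 51.4, 54.6, 42.4 and 33.5 CPM, again without overlap (-0.74 ± 0.14, limma-trend adjusted p = 0.000121), and Tyms fell (-0.35 ± 0.14) with an adjusted p of 0.0453. Under TMM factors the call of Tyms was lost (-0.23 ± 0.13, limma-trend adjusted p = 0.166). Rrm2 (-0.49 ± 0.27) and Tk1 (-0.49 ± 0.25) did not pass. Pcna fell from 142 ± 11.6 to 108 ± 21.2 CPM (-0.42 ± 0.12, limma-trend adjusted p = 0.00859), and E2f1 was at 15.9, 15.2, 16.4, 9.51 and 5.05 CPM (-0.57 ± 0.24, adjusted p = 0.0579).

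Both transcription factors and all 7 kinases fell in RC/- D18. Mybl2 was at 3.64, 5.32, 3.85, 3.40 and 2.56 CPM, all below RC/-, with the largest fall of the members (-1.27 ± 0.24, limma-trend adjusted p = 0.000175), and Foxm1 had -0.76 ± 0.25 (limma-trend adjusted p = 0.0175). Of the kinases, Plk1 fell most (-1.20 ± 0.32, limma-trend adjusted p = 0.00350) and Aurka least (-0.70 ± 0.27, limma-trend adjusted p = 0.0387). The call of Aurka was lost under TMM factors (-0.58 ± 0.25, limma-trend adjusted p = 0.0693). Melk was at 10.2, 10.49, 9.30, 5.68 and 2.31 CPM in RC/- D18, where 3 libraries reached above the lowest RC/- library. Cdk1 was at 32.6, 34.2, 26.01, 19.5 and 9.10 CPM and also overlapped RC/- (-0.998 ± 0.29, limma-trend adjusted p = 0.00818). Ccna2, Ccnb1 and Cdc25c fell, with log2 fold changes of -0.94, -0.95 and -1.16, and Ccnb2 did not pass (-0.86 ± 0.36, adjusted p = 0.0570).

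All 6 passenger complex and kinetochore genes fell, with log2 fold changes from -0.73 for Cenpa to -1.12 for Ndc80. Cenpe (-0.85 ± 0.31, limma-trend adjusted p = 0.0305) lost its call under TMM factors (limma-trend adjusted p = 0.0501). Cdca8 was at 14.98, 15.8, 12.2, 8.39 and 4.41 CPM (-1.12 ± 0.29, limma-trend adjusted p = 0.00342). Of the spindle genes, Tpx2 fell to 26.2, 25.2, 21.8, 14.2 and 7.71 CPM (-1.15 ± 0.28, limma-trend adjusted p = 0.00159), and Kif11, Kif20a and Prc1 fell as well (-0.87, -0.79 and -0.81). Kif23, which had risen in RC/-, did not pass (-0.56 ± 0.23, adjusted p = 0.0527), nor did Nusap1 (-0.73 ± 0.31) and Ect2 (-0.47 ± 0.26). Ube2c was at 24.4, 22.5, 17.7, 10.6 and 4.69 CPM (-1.15 ± 0.34, limma-trend adjusted p = 0.00792), while Cdc20 (-0.68 ± 0.32) and Cdca3 (-0.73 ± 0.34) did not pass. Top2a fell (-1.01 ± 0.30, limma-trend adjusted p = 0.00855). Mki67 was at 95.6, 103, 79.9, 53.5 and 20.6 CPM, with 3 libraries above the lowest RC/- value (-0.83 ± 0.34, adjusted p = 0.0546).

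The RC/- D18 libraries differed widely among themselves. Replicates 18, 19 and 20 had member sums of 1295, 1286 and 1146 CPM, replicate 21 of 801 CPM and replicate 22 of 475 CPM. Without replicate 22, 18 of the 46 members fell, with a median log2 fold change of -0.56, while 36.8% of all tested genes changed in either direction, against 41.2% with all libraries. Replicates 20 to 22 are those with high skeletal muscle markers. Without them, which leaves 2 libraries in the group, 4 members fell, the median was -0.30 and 43 of the 46 signs were negative. A covariate for libraries 20 to 27 also left 4. Of all tested genes, 27.1% changed in either direction without these libraries and 27.5% with the covariate. Mybl2 remained past the threshold in both fits (limma-trend adjusted p = 0.0240 and 0.0206), as did Rrm1 (limma-trend adjusted p = 0.0141 and 0.0234). The summed level of the 6 skeletal muscle markers was 7.10 to 180 CPM in RC/- D18 and 6.47 to 9.36 CPM in RC/-, and 5 of the 6 rose. All 10 macrophage markers (337 to 372 CPM), 7 of 8 collecting duct markers (1384 to 1791 CPM) and 6 of 8 fibroblast markers (996 to 2673 CPM) fell in RC/- D18, and all 8 proximal tubule markers rose (5651 to 7936 CPM). Their part in the members' fall was not tested.

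In the D53 line, 1 of the 46 members fell against RC/- (2.17%), while 18.9% of all tested genes fell and 11.3% rose. That member was Mybl2, at 3.63, 3.79, 7.33, 5.83 and 5.38 CPM in the 5 RC/- D53 libraries (-0.82 ± 0.24, limma-trend adjusted p = 0.0125). Of these libraries, replicate 25 lay within the RC/- range and the other 4 lay below it. No member was separated between the groups in full, against 11.8% of all tested genes that were lower without overlap. The median log2 fold change of the members was -0.26 against -0.08 for all tested genes, and 44 of 46 signs were negative, the exceptions being Rrm2 (0.08 ± 0.27) and Ect2 (0.09 ± 0.26).

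Most other members in RC/- D53 had means between those of RC/- D18 and RC/-. Rrm1 was at 54.97, 49.4, 70.96, 66.5 and 69.8 CPM (-0.34 ± 0.14, adjusted p = 0.0630) and Cdc6 at 5.32, 4.48, 8.06, 7.56 and 7.65 CPM (-0.56 ± 0.31, adjusted p = 0.186). In Cdc6 3 of 5 and in Rrm1 2 of 5 libraries reached into the RC/- range. Mcm4 was at 29.5 ± 6.12 CPM (SD, n = 5), with a log2 fold change of -0.39 ± 0.16 and an adjusted p of 0.0731, and Mcm2 had -0.34 ± 0.16 and 0.111. Of the mitotic genes, Plk1 had the most negative value after Mybl2 (-0.57 ± 0.32, adjusted p = 0.186). Cdk1 was at 30.6, 21.2, 41.2, 40.6 and 41.5 CPM, Tpx2 at 25.8, 21.3, 33.1, 36.2 and 29.7 CPM and Mki67 at 94.4, 72.9, 117, 119 and 81.1 CPM. Replicate 24 was the lowest of these 5 libraries in all 3 genes.

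With TMM factors the median was -0.17 and 39 of 46 signs were negative, and without replicate 24 the median was -0.12 and 33 signs were negative. Without RC/- D53 replicate 27 the count was 3, and without RC/- replicate 17 or RC/- D53 replicate 25 it was 2. All 5 RC/- D53 libraries were among those with high muscle markers (147 to 194 CPM, 6 of 6 markers higher than in RC/-), so the comparison could not be repeated without them. In a fit with a covariate for libraries 20 to 27, which takes their effect from the RC/- D18 libraries, no member passed, 5 had an unadjusted p below 0.05 and the median was 0.66, of the opposite sign. No share of all tested genes is given beside the counts of these alternative fits. All 10 macrophage markers (374 to 514 CPM), 4 of 8 fibroblast markers and 4 of 8 collecting duct markers fell in RC/- D53 and all 8 proximal tubule markers rose (4433 to 5718 CPM). Of 9 markers of erythroid precursors, a list that includes hemoglobin genes, 7 rose in RC/- D53 (473 to 1340 CPM against 247 to 458 CPM in RC/-). Their part in the members' values was not tested.

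The lines were also compared within the noncystic genotype, where the RC/+ libraries are the shared reference. In RC/+ D18 none of the 46 members passed the test by limma-trend, edgeR or DESeq2, while 0.00443% of all tested genes (1 gene) changed. No member had an unadjusted p below 0.05 by any of the 3, against 1013 of the 22570 tested genes by limma-trend. All 46 signs were negative, with a median of -0.39. Mki67 was at 28.3, 59.5 and 82.4 CPM and Cdk1 at 11.5, 21.9 and 30.2 CPM in RC/+ D18. In both genes replicate 7 lay below every RC/+ library. In RC/+ D53 none passed either, and 0% of all tested genes changed. An unadjusted p below 0.05 was reached by 0 members by limma-trend and 1 each by edgeR and DESeq2. Of the 22570 tested genes, 525 reached it by limma-trend. With these 2 groups fitted alone none passed, and 36 of 46 had an unadjusted p below 0.05 by limma-trend. All tested genes were not counted at that unadjusted limit in this fit, so the 36 have no share to be set against. All 46 signs were positive here, with a median of 0.49, and for 32 members (7 S-phase and 25 G2 and mitosis genes) the 3 RC/+ D53 libraries lay above all 3 RC/+ libraries, as for 4.95% of all tested genes. Mki67 was at 91.2, 102 and 103 CPM and Cdk1 at 41.4, 42.9 and 41.5 CPM, all above their RC/+ values. Ndc80 had the largest value, at 0.70 ± 0.48 with an unadjusted p of 0.156. The members moved together from library to library, so these 32 are not 32 independent separations.

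Cystic and noncystic kidneys were then compared within each line. In RC/- D18 against RC/+ D18 no member passed by limma-trend, edgeR or DESeq2, while 0.266% of all tested genes changed. No member had an unadjusted p below 0.05, against 2011 of the 22570 tested genes by limma-trend. The median was 0.11 and 37 of 46 signs were positive. Without RC/- D18 libraries 20 to 22 the median was 0.70, all 46 signs were positive and 22 members had an unadjusted p below 0.05. With a covariate for libraries 20 to 27 the median was also 0.70 with 46 positive signs, and 10 members had an unadjusted p below 0.05. No member passed in either fit (limma-trend). With all libraries and no covariate, Mybl2 had 0.12 ± 0.28. In RC/- D53 against RC/+ D53 no member passed by any of the 3 tests, while 2.60% of all tested genes changed. No member had an unadjusted p below 0.05, against 3013 of the 22570 tested genes by limma-trend. The median was -0.18 and 42 of 46 signs were negative, and Mybl2 had 0.04 ± 0.28. The covariate, whose size is set by the RC/- D18 libraries, turned this direction. With it the median was 0.72, all 46 signs were positive, 3 members had an unadjusted p below 0.05 and none passed (limma-trend). In these alternative fits all tested genes were not counted at the unadjusted limit, so the 22, 10 and 3 have no share beside them.

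The 2 lines were compared directly in cystic kidneys. No member passed in RC/- D53 against RC/- D18 by limma-trend, edgeR or DESeq2, while 0.266% of all tested genes changed. An unadjusted p below 0.05 was reached by 30 members by limma-trend, 19 by edgeR and 13 by DESeq2. Of the 22570 tested genes, 2993 reached it by limma-trend. All 46 signs were positive, with a median of 0.63. Restricted to the RC/- D18 libraries with high muscle markers (replicates 20 to 22), which resemble RC/- D53 in that respect, the median was 0.9998 and 45 members had an unadjusted p below 0.05. All tested genes were not counted at that limit in this fit, so the 45 have no share beside them. Replicates 21 and 22 had the lowest member sums of RC/- D18, at 801 and 475 CPM. Against the other 2 RC/- D18 libraries the median was 0.07, 33 signs were positive and no member had an unadjusted p below 0.05. Without replicate 22 alone the median was 0.31.

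The test of whether the cystic difference itself differed between lines was the interaction of cystic genotype and line. Mybl2 passed in both, and was the sole member to do so. All 46 members had a negative interaction in both lines, with medians of -0.46 for D18 and -0.76 for D53. The median of all tested genes was -0.09 in each. An unadjusted p below 0.05 was reached by limma-trend in 6 members for D18 and 10 for D53. Of the 22570 tested genes, 6651 and 5782 reached it. Among the helicase genes the lowest adjusted p was 0.0798 for D18 and 0.0523 for D53 (limma-trend). The cystic difference of Mybl2 was 1.28 ± 0.28 without deletion, 0.12 ± 0.28 in D18 and 0.04 ± 0.28 in D53. Its interaction was thus -1.16 ± 0.40 for D18 (limma-trend adjusted p = 0.0464) and -1.24 ± 0.40 for D53 (limma-trend adjusted p = 0.0449). The interaction was negative at the same threshold in 10.8% of all tested genes for D18 and in 6.55% for D53. Both interactions use the same RC/+ and RC/- libraries. The values of Mybl2 in the RC/+ D18 libraries were 2.39, 3.10 and 5.04 CPM and in the RC/+ D53 libraries 4.77, 5.01 and 4.81 CPM, within the RC/+ range of 3.80, 2.17 and 5.70 CPM. Both adjusted p lay close to the threshold, and under TMM factors or edgeR neither interaction passed. Without RC/- D18 libraries 20 to 22 the D18 interaction was -0.90 ± 0.45 (limma-trend adjusted p = 0.239).

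Another 105 genes of the cell cycle that are not members were listed by function as a comparison. In RC/- against RC/+, 33 of them rose and 4 fell, while 25.5% of all tested genes rose and 12.2% fell. Among the 11 regulators of cell cycle entry 7 rose and none fell, and of the 12 licensing and firing factors 4 rose and none fell. The largest differences past the threshold were those of E2f8, an atypical E2F repressor, from 3.54 to 9.44 CPM (1.39 ± 0.35, limma-trend adjusted p = 0.00292) and of Sgo2a, which protects cohesion at centromeres, from 1.42 to 3.35 CPM (1.19 ± 0.43, limma-trend adjusted p = 0.0307). For Sgo2a, 35.0% of the exon bases lie opposite exons of Kctd18, and for E2f8 11.2% lie opposite exons of Gm2788. Those that fell included the kinetochore gene Spc25 (-0.59), the MuvB subunit Lin52 (-0.56) and Rbl2, the gene of the pocket protein p130 (-0.32). In RC/- D18 against RC/-, 78 of the 105 fell and 5 rose, while 26.9% of all tested genes fell and 14.3% rose. In RC/- D53 against RC/-, 9 fell and 5 rose, while 18.9% of all tested genes fell and 11.3% rose. The members' counts in those comparisons were 36 of 46 and 1 of 46 lower and none higher.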

How the data were processed

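Total RNA of whole kidneys was sequenced in 24 mice, and the authors deposited raw counts of reads per gene, 1 column per mouse. Per the study's methods and the submitters' processing notes, the authors trimmed reads with Trim Galore 0.6.3 and aligned and counted them with STAR 2.5.3a on GRCm38. The strand setting of the count is not given in the sources used here. Libraries held 20379982 to 30837488 counts, and 0 sample columns were left unused. Libraries 4 to 27 were grouped by genotype and line from the sample labels.

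Counts were turned into log2 CPM with a prior count of 2, and genes with a mean of at least -3 over all 24 libraries (22570 of 54532) were tested. All 6 groups were fitted together with limma 3.58.1 (limma-trend, R 4.3.3), with Benjamini-Hochberg adjustment over all tested genes and a threshold of 0.05. Log2 fold changes are on the log2 CPM scale, and errors after ± are standard errors for fold changes and SD for CPM. Alternatives used edgeR 4.0.16, DESeq2 1.42.0, other scalings, filters and prior counts, covariates and sets of libraries. Sex for the covariate was read from Xist and Ddx3y (14 female and 10 male mice). The fit was tested on simulated data. Counts of members at an unadjusted p in alternative fits have no share of all tested genes beside them and are descriptions only.

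The members, role groups and other lists were chosen with earlier results of these data known, as was the set of libraries 20 to 27. All 46 members are named. The member of each of 10 role groups with the largest absolute log2 fold change in RC/- against RC/+ is given in every library, as are genes that alone passed a comparison, and the others by group means. Of the other cell cycle genes, those named are the 2 with the largest differences past the threshold and those past it in the opposite direction. One of the latter and the promoter stretch of a member are not reported here. Gene positions and exon overlaps were taken from GENCODE annotation of GRCm38, and near-identical transcripts were searched with blastn 2.17.0 at 95% identity over at least 200 bases. Promoters were taken from RefSeq sequences of GRCm38.p6.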

Additional observations from a re-analysis of the deposited data

Results flagged for a closer look

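Mybl2 was flagged as the sole member that passed the interaction test of cystic genotype and line, in which deletion and founder cannot be told apart. Its interaction was -1.16 ± 0.40 on the log2 scale for the D18 line (limma-trend adjusted p = 0.0464) and -1.24 ± 0.40 for the D53 line (limma-trend adjusted p = 0.0449). All 46 members had a negative interaction in both lines. RC/- libraries held 6.97 to 11.1 CPM of Mybl2, RC/- D18 libraries 2.56 to 5.32 CPM and RC/- D53 libraries 3.63 to 7.33 CPM, while the 9 noncystic libraries held 2.17 to 5.70 CPM. Both interactions rest on the same RC/+ and RC/- libraries. Neither passed with TMM factors, DESeq2 size factors, no filter, edgeR or sex as a covariate. Of all tested genes, 10.8% had a negative interaction past the threshold for D18 and 6.55% for D53. Passing was thus not particular to Mybl2. A processed pseudogene, Gm3320, has a transcript that is 99.7% identical to Mybl2 over 742 bases, and its part in these counts was not tested.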

How the results depend on the processing

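The count of members that rose in RC/- against RC/+ was 8. It was 5 with TMM factors, DESeq2 size factors or edgeR, 18 with the 2 groups alone, and 1 where a log2 fold change past 1 in size was also required, and it ranged from 3 to 10 when single libraries were left out. The count that fell in RC/- D18 was 36. It was 4 with a covariate for libraries 20 to 27, 4 without RC/- D18 libraries 20 to 22, 14 with that requirement, and 18 to 42 with single libraries left out. The count that fell in RC/- D53 was 1, against 5 with the 2 groups alone, 0 with the covariate, 0 with that requirement, and 1 to 3 with single libraries left out. The interaction with D18 (1 member) passed for 0 members with TMM factors, size factors, no filter, edgeR, only the groups compared, sex as a covariate, the covariate for libraries 20 to 27, or without libraries 20 to 22, and for 0 to 3 with single libraries left out. The interaction with D53 (1 member) passed for 0 members with TMM factors, size factors, no filter, edgeR, sex or the covariate for libraries 20 to 27, for 2 with a filter at a mean log2 CPM of 0 or with DESeq2, for 9 with only the groups compared, and for 0 to 2 with single libraries left out. In the other 5 comparisons the count was 0 under every alternative run. The share of all tested genes that passed is not given here beside the counts of these alternatives. Signs of single genes were followed for the leading member of each role group in RC/- against RC/+ and RC/- D18 against RC/-. Mybl2 was also followed in RC/- D53 against RC/- and in both interactions. None of these values changed sign past the threshold, and other members were not followed in this way. The members' median did turn sign with the covariate in RC/- D53 against RC/- and against RC/+ D53. Apart from settings that change the genes or libraries tested by construction, the cause of these changes was not tested. In RC/- against RC/+, Mybl2 kept its call under every alternative run, and Cdc6 lost its call under 13 of them. No paired analysis was possible because each library carried its own replicate number and no number was shared between groups.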
